A study of Pistacia vera with 121 samples.

Results

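The kernel of pistachio (Pistacia vera, cultivar Kerman) was followed over the interval in which sampling moved from 1357 to 1657 growing degree days, a running sum of warmth that marks plant age. Of 121 libraries in the series, 39 were labelled kernel, and 6 of these carried the comparison: K9, K10 and K11 at 1357, and K17, K18 and K19 at 1657. Libraries K13, K15 and K16, labelled 1508, served as the midpoint. The labels name no treatment, and the 3 groups differ there only in degree days; how many fruits went into a library is not stated. The other tissues were the hull, which is the outer fruit wall, and the shell, which is the hard inner wall around the seed. Here, 37063 rows whose identifiers start with PvKer were used out of 38315, and library totals were taken over these rows. The other 1252 rows are named after contigs. None of the identifiers matched the RefSeq table at hand (0 of 38315) and the files do not pair them with gene names, so genes are described by number and behaviour, and only 4 are named.

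As background, a nut fruit first builds its wall and shell, and the seed inside fills afterwards. The cotyledons of a growing seed stop dividing, expand, and then lay down oil and storage protein. In many seeds the transcripts of a small number of storage protein genes come to make up a large part of the messenger RNA during that time. Whether the genes described here belong to that group cannot be read from the identifiers.

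The 9 kernel libraries held between 3280773 and 10080698 counts in PvKer rows, with the shallowest at 1357 (K10) and the next at 1657 (K17, 4752068 counts). A count of 0 allowed up to 0.298 to 0.914 CPM (counts scaled to a common library total), taking 3 counts as the limit. Intervals and such limits cover counting error only. Contig-named rows took 26.7% of all counts in K10 and 16% in K17, against 2.51% to 8.39% in the other 7. The groups at 1357 and 1657 overlapped in that share. Refits with these rows kept and without K10 and K17 are given with the calls below. The cause of the share was not tested. On the log2(CPM + 1) scale, libraries correlated at 0.962 to 0.974 within 1357 and at 0.967 to 0.971 within 1657, across genes with at least 90 counts in sum. Between these groups the values were 0.865 to 0.878. Genes are not independent replicates, so these values describe the libraries. Nothing in the labels says whether libraries of a group came from separate trees, so p-values measure only the spread between these samples.

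The kernel label was checked with gene lists taken from other libraries, those labelled 2007. A gene entered a tissue's list at 10 CPM or more, at least 16-fold above each other tissue, with no overlap of libraries. The kernel list thus favours genes that are high in later kernels. The 352 kernel genes took 29.1% to 35.3% of counts at 1357, 39.9% to 44% at 1508 and 44.1% to 49.2% at 1657. The same genes took 0.125% to 0.242% in hull and shell libraries labelled 1357 or 1657. The 47 shell genes together took 0.00713% to 0.00814% of kernel counts at 1357 and 0.00176% to 0.0031% at 1657, against 0.114% to 0.361% in shell libraries of these ages. Between 12 and 27 of the 47 were at 0 in each kernel library of both groups. The 3 hull genes took 0.000496% to 0.00116% at 1357 and 0.00173% to 0.0119% at 1657, against 0.0178% to 0.0506% in hull libraries. Most genes of these lists were too low in kernel to be tested: 8 of the 47 shell genes and 1 of the 3 hull genes were. Of the 1566 genes called lower in kernel, 2 (0.128%) were on the shell or hull list. Those 8 and 1 genes were all that the 2 lists held among the 14791 tested. The share is thus limited by how few list genes were tested and is not read as low. The part of RNA from neighbouring tissues in the results was not tested.

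A small set of transcripts held a larger part of the libraries at 1657 than of those at 1357. The 10 most abundant genes of each library held 31.5% of PvKer counts in K9, 26.5% in K10 and 25.9% in K11. They held 37.3%, 39% and 41.2% in the 3 libraries at 1508, and 45.1%, 45.6% and 41.9% at 1657. Every library at 1657 lay above every library at 1508, and each of those above every library at 1357. The means were 28% ± 3.07, 39.2% ± 1.96 and 44.2% ± 2.01 (SD, n = 3 each). The difference of 16.2 percentage points between 1657 and 1357 had a two-sided exact permutation p of 0.1, the smallest that 3 against 3 libraries can give. With the contig-named rows kept, the difference was 11.8 percentage points.

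The number of genes that together held 50% of the counts was lower at the later ages. It was 191, 244 and 255 in the libraries at 1357, then 79, 63 and 44 at 1508, and 23, 21 and 38 at 1657. Genes with at least 1 count numbered 16781 to 18831 at 1357 and 17296 to 18324 at 1657. The first measure did not overlap between 1357 and 1657, while the ranges of detected genes did.

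**Figure D1:**
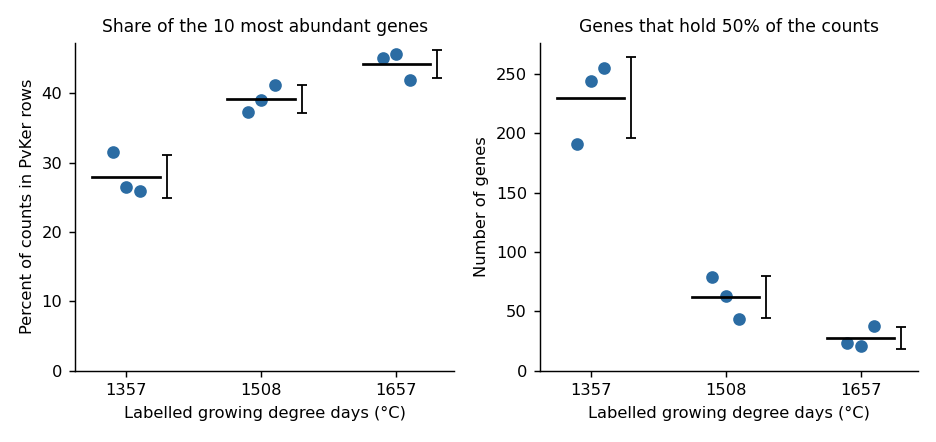
Share of PvKer counts held by the 10 most abundant genes of each kernel library (left, percent) and number of genes that together hold 50% of the counts (right), by labelled degree days. Points are single libraries, horizontal lines are means and bars are SD (n = 3); the mean share is 28% at 1357 and 44.2% at 1657, with no overlap between these groups.

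Taking the 10 genes with the highest mean share over the 9 libraries, 5 were called higher at 1657 and none was called lower. A gene was called when edgeR's quasi-likelihood test gave an adjusted p below 0.05 and the change was at least 2-fold. Their log2 changes ran from 0.23 to 1.41 with a median of 0.987, beside 0.0057 over all 14791 genes tested. With library totals alone in place of TMM (trimmed mean of M-values) scaling, 3 of the 10 were called and the values ran from -0.05 to 1.13. The gene with the highest share moved less than 2-fold: it took 6.8% of counts at 1357, 8.01% at 1508 and 7.89% at 1657, and its libraries overlapped (log2 change 0.50 ± 0.169 SE, edgeR adjusted p = 0.0294). The ninth by share moved most, from 0.501% to 0.895% and 1.10% (log2 change 1.41 ± 0.153 SE, edgeR adjusted p = 7.79e-06). Shares of counts also follow transcript length, so they do not order the genes by number of molecules. In bulk tissue, more cells of one type and more RNA per cell cannot be told apart.

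Across the whole table, 1713 genes (11.6% of 14791 tested) were called higher at 1657 than at 1357 and 1566 (10.6%) were called lower. Higher calls made up 52.2% of the total. The split depended on scaling: with library totals alone, 1078 genes were higher and 2448 lower, or 30.6% higher, since TMM moved the median of all genes by 0.282 on the log2 scale. Fitted log2 changes and calls below are relative to the TMM scale unless stated, while CPM levels and shares of counts use PvKer totals. Fitting all 39 kernel libraries together gave 791 higher and 775 lower calls. Keeping the contig-named rows gave 1709 and 1566. Leaving out K10 and K17 together gave 1464 and 1441, with 75.3% of the higher and 81.0% of the lower calls kept. None of the 1713 and 1566 genes was called in the opposite direction under the alternatives run for this comparison.

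Genes that rose did so mostly by moderate factors. Their median log2 change was 1.56, and 72.0% changed by less than 2 on that scale. In 782 of the 1713 the mean at 1657 was below 10 CPM, and 102 reached at least 100 CPM. Median levels of the group were 4.48 CPM at 1357, 10.6 at 1508 and 11.3 at 1657. Only 5 genes went from below 1 CPM to at least 10 CPM, and 4 had no count in any library at 1357.

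Beside 11.3 CPM at 1657 for the genes that rose, genes that fell had a median of 19.3 CPM in their own higher group, 1357. Their median log2 change was 1.75 in size, and 60.6% changed by less than 2 on that scale. Medians were 19.3 CPM at 1357, 6.11 at 1508 and 4.67 at 1657. At 1357, 241 of the 1566 genes stood at 100 CPM or more. From at least 10 CPM, 21 genes went below 1 CPM, and 31 had no count in any library at 1657. Placing genes without counts at the limit of 3 counts left both medians as given.

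Without any test, 111 genes had no count in any library at 1357 and a count in every library at 1657, with a highest mean of 5.73 CPM. The converse held for 209 genes, with a highest mean of 38.6 CPM at 1357.

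The tissue lists taken from the 2007 libraries were read in the same fit, on the TMM scale. Kernel genes entered their list by being high in kernel at that later age. This choice favours genes that rise with kernel age, so the shares describe the list. Of the 352 kernel genes, 347 were tested, 121 were called higher (34.9%) and 28 lower (8.07%), with a median log2 change of 0.599, beside 11.6% and 10.6% of all tested genes and a median of 0.0057. Of the 47 shell genes 8 were tested, with 0 called higher and 2 lower (25%), beside the same shares of all tested genes. Of the 3 hull genes 1 was tested, and it was called higher.

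The summed weight of the lists is a description of what the test selected. Genes called higher took 15.1% ± 2.91 of counts at 1357, 25% ± 1.41 at 1508 and 29.9% ± 1.53 at 1657 (SD, n = 3 each). Genes called lower took 11.2% ± 0.773, 3.91% ± 0.314 and 2.9% ± 0.239. Among genes averaging 1000 CPM or more over the 9 libraries, 15 of 53 were called higher (28.3%) and 3 lower (5.66%), although library totals alone gave 7 and 6. From 100 to 1000 CPM the balance was the other way, with 62 of 1111 higher (5.58%) and 129 lower (11.6%). From 10 to 100 CPM it was 9.55% against 9.03%. From 1 to 10 CPM, 908 of 6011 were higher (15.1%) and 716 lower (11.9%). Below 1 CPM, 20 of 199 were higher (10.1%) and 48 lower (24.1%).

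**Figure D2:**
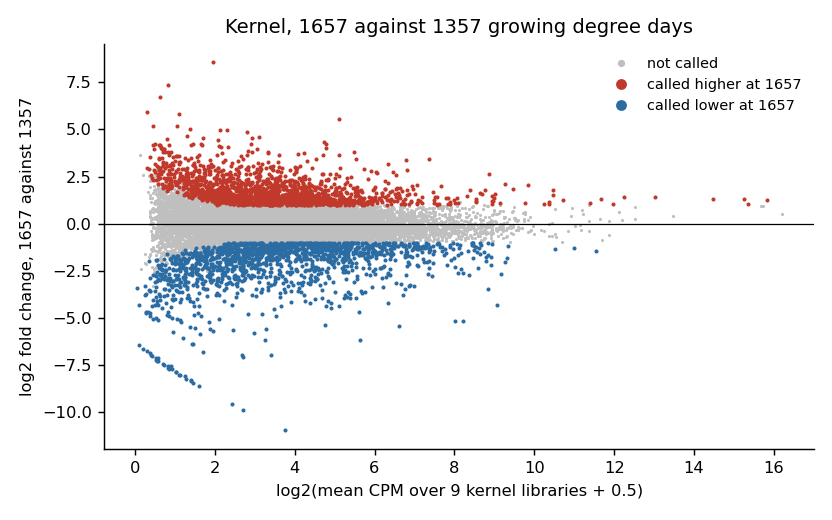
Log2 fold change of each tested gene from 1357 to 1657 (vertical axis) against log2 of its mean CPM over the 9 kernel libraries plus 0.5 (horizontal axis). Red points were called higher (1713), blue points lower (1566) and grey points were not called; fitted changes of genes with no count in a group, along the lower left edge, depend on a small prior count and are not exact sizes.

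Calls were far more numerous in the first step of the interval than in the second. From 1357 to 1508, 1438 genes (9.72%) were called higher and 1353 (9.15%) lower. From 1508 to 1657, 12 genes (0.0811%) were called higher and 15 (0.101%) lower, with 2023 genes at an unadjusted p below 0.05 against 6198 in the first step. Both steps share the libraries at 1508. Genes called higher over the interval had a median log2 change of 1.40 in the first step and 0.212 in the second, and genes called lower had -1.47 and -0.321. All tested genes had medians of 0.0122 and -0.0033.

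Few libraries decide the small counts of the second step. Library K13, labelled 1508, correlated better with the 1657 mean (0.969) than with the mean of the other libraries of its own group (0.959). Without it, the second step gave 107 higher and 119 lower calls. Leaving out K9 gave 9 higher and 14 lower calls. Leaving out K10, K11, K15, K16, K17, K18 or K19 gave 1 to 7 higher and 5 to 12 lower calls. Leaving out K10 and K17 together gave 0 in both directions with 1583 genes at an unadjusted p below 0.05. In the full set, DESeq2 called 48 and 57 and limma-voom 19 and 12.

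A direct test asked whether expression at 1508 lay away from the midpoint of 1357 and 1657. At an adjusted p below 0.05 in edgeR's quasi-likelihood test, 733 genes (4.96%) lay above that midpoint and 595 (4.02%) below it. Without K10 and K17 these were 378 and 352, and with all kernel libraries in the fit 33 and 26. The correlations between these same libraries were 0.863 to 0.894 between 1357 and 1508, and 0.942 to 0.966 between 1508 and 1657. Within 1508 itself the values were 0.946 to 0.963.

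The named genes, 2 in each direction, were chosen by a rule on size from those whose libraries did not overlap between 1357 and 1657. In each direction one has the largest difference in CPM and the other the largest fold change among genes with at least 10 CPM in the higher group and at least 1 count in every library of the lower group. Genes without a count in the lower group were thus not ranked by fold.

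PvKer.01.g016140 had the largest gain in CPM. It stood at 58900 CPM in K9, 31300 in K10 and 25600 in K11, at 51900, 63300 and 65300 at 1508, and at 77700, 75000 and 78000 at 1657. Libraries at 1357 varied widely while those at 1657 were close together. That these groups did not overlap was a condition of the choice. The log2 change was 1.27 ± 0.246 (SE, edgeR adjusted p = 0.00103), with 0.82 ± 0.244 in the first step (adjusted p = 0.0187). With library totals alone it was 0.99, just under the 2-fold limit. In the fit with all kernel libraries it was 1.24 and was not called. In later kernels PvKer.01.g016140 was at 16500 to 49600 CPM at 1759, 45300 to 51400 at 1881, 61500 to 71400 at 2007 and 4640 to 6230 at 2475.

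PvKer.11.g278740 had the largest fold gain among the genes so ranked, which had a count in every library at 1357. It was at 1.49, 1.52 and 2.54 CPM in K9, K10 and K11, which rests on 15, 5 and 20 counts. At 1508 it was at 61.4, 6.0 and 11.3 CPM, and at 1657 at 84.2, 34.3 and 103 CPM. The libraries at 1508 were far apart, with K13 within the range of 1657. Group means were 1.85 ± 0.598 and 73.8 ± 35.5 CPM (SD, n = 3), a 39.9-fold difference in CPM. The fitted log2 change on the TMM scale was 5.53 ± 0.756 (SE, edgeR adjusted p = 5.81e-05). The level of PvKer.11.g278740 went on to 122 to 792 CPM at 1881 and 1550 to 2170 CPM at 2475. At 1223 the gene was at 0.734 to 1.81 CPM, which overlaps its range at 1357.

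PvKer.01.g017580 lost the most CPM. It was at 4220, 5500 and 5330 CPM at 1357, at 2280, 2410 and 2430 at 1508, and at 1360, 1440 and 1710 at 1657. Each group lay wholly below the one before it. The log2 change was -1.46 ± 0.144 (SE, edgeR adjusted p = 3.15e-06), with -0.89 ± 0.142 in the first step and -0.57 ± 0.141 in the second (adjusted p = 0.000261 and 0.106). At 1223 it stood at 7300 to 7650 CPM, and by 1881 at 233 to 650 CPM. In the fit with all kernel libraries PvKer.01.g017580 changed by -1.49 and was not called.

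PvKer.06.g151370 had the largest fold loss among the genes so ranked, which had a count in every library at 1657. Libraries K9, K10 and K11 held 283, 94 and 262 counts, or 28.1, 28.7 and 33.2 CPM. No count was found in any library at 1508, and K17, K18 and K19 held 2, 1 and 1 counts. The level at 1508 was at least 218-fold lower than at 1357, with 3 counts over the group as the limit. At 1657 the pooled level was lower by a factor of 167 (exact 95% interval 64.9 to 614), and the fitted log2 change was -6.96 ± 0.427 (SE, edgeR adjusted p = 1.83e-07). At 1223 the gene was at 0 to 0.839 CPM, so within the kernel PvKer.06.g151370 was high at 1357 and low in the groups on both sides of it.

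**Figure D3:**
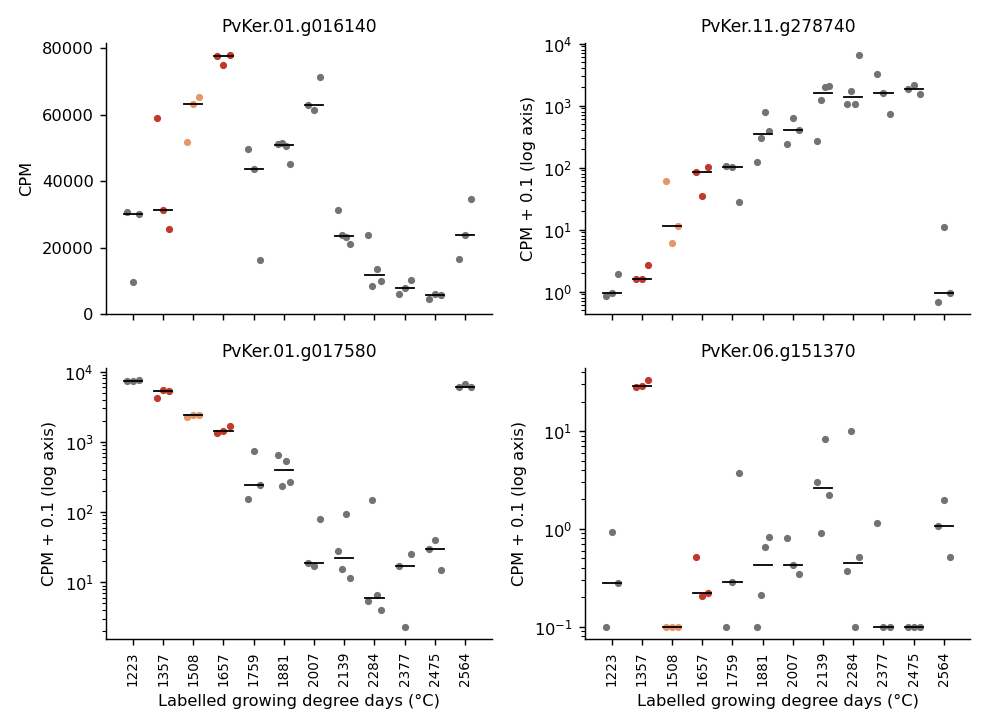
Level of the 4 named genes in every kernel library by labelled degree days, as CPM on a linear axis for PvKer.01.g016140 and as CPM + 0.1 on log axes for the others. Points are libraries (red 1357 and 1657, orange 1508, grey other groups) and lines are group medians; PvKer.06.g151370 stands at 28.1 to 33.2 CPM at 1357 while its 1223 and 1508 libraries lie below 1 CPM.

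Shell and hull libraries of the same ages show what the neighbouring tissues did over the interval. One hull library labelled 1357, H15, stood apart: shell genes took 0.164% of its counts against a median of 0.00981% in that group. In a fit of the 3 tissues over 18636 genes, shell had 1203 higher (6.46%) and 1672 lower (8.97%) calls, and hull had 340 higher (1.82%) and 1489 lower (7.99%). Without H15 hull had 633 higher (3.4%) and 1524 lower (8.19%).

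A larger share of the genes that fell in kernel was called lower in the other tissues than of all 18636 genes in that fit. The difference in share was not tested. The 18636 include genes not among the 14791 of the kernel fit, so list and background were not matched for level. Of the 1566 genes called lower in kernel, 363 were called lower in shell (23.2%) and 102 higher (6.51%), and their median log2 change there was -0.542. In hull 309 were lower (19.7%) and 16 higher (1.02%), with a median of -0.48. Without H15 these were 297 (19%) and 51 (3.26%).

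Genes that rose in kernel were closer to the same unmatched background elsewhere. In shell 152 of 1713 were called higher (8.87%) and 89 lower (5.2%), with a median log2 change of 0.127. In hull 36 were higher (2.1%) and 105 lower (6.13%), with a median of 0.0127. Without H15 the hull counts were 75 (4.38%) and 115 (6.71%).

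The difference between tissues was also tested directly. The change in kernel exceeded that in shell for 1741 genes (9.34%) and lay below it for 2241 (12%). Against hull the counts were 1774 (9.52%) and 1789 (9.6%). These comparisons use the same kernel libraries as the kernel calls, so their overlap with those lists is not given.

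Among the named genes, PvKer.11.g278740 and PvKer.06.g151370 changed in kernel to a different extent than in both other tissues. The named genes were all chosen for a large change in these same kernel libraries, which favours a large difference from other tissues. The p-values are thus not independent of the choice. The kernel change of PvKer.11.g278740 exceeded that of shell by 5.53 ± 1.186 and that of hull by 6.07 ± 1.175 on the log2 scale (SE, edgeR adjusted p = 0.00117 and 0.000547). In shell it was at 1.72 ± 0.778 CPM at 1357 and 1.62 ± 0.531 at 1657 (SD, n = 3). PvKer.06.g151370 fell in all 3 tissues: shell went from 31.9 to 37.7 CPM at 1357 to 8.63 to 12.2 CPM at 1657 (n = 3 each), and hull from 43.4 ± 23 (n = 4) to 11.7 ± 2.92 CPM (n = 3). Its kernel change was lower than that of shell by a log2 difference of -5.33 ± 0.847 and than that of hull by -5.26 ± 0.828 (adjusted p = 6.56e-05 and 8.11e-05). At 1508 the tissues were furthest apart, with 70.3 ± 13.6 CPM in shell, 72.1 ± 9.03 CPM in hull and no count in kernel.

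For the other 2, neither difference between tissues had an adjusted p below 0.05 in the full set. Without H15 the one against hull did for both, but for PvKer.01.g017580 it was just under the 2-fold limit. PvKer.01.g016140 rose in shell by 1.04 ± 0.298 (SE, adjusted p = 0.0115), at a far lower level of 75.3 to 152 CPM, and the difference from the kernel change was 0.13 ± 0.416 (adjusted p = 0.871). Its kernel change exceeded that in hull by 0.87 ± 0.405 (adjusted p = 0.123) with H15 and by 1.04 ± 0.368 (adjusted p = 0.0337) without it. PvKer.01.g017580 changed in shell by -2.40 ± 0.816 (edgeR adjusted p = 0.0304), from a mean of 274 to 51.5 CPM. In the same fit it changed by -3.61 ± 0.856 in hull (adjusted p = 0.00477) and by -1.55 ± 0.788 in kernel (adjusted p = 0.139). Without H15 the hull change was -0.58 ± 0.246 (adjusted p = 0.0889). For PvKer.01.g017580 the kernel change differed from that in hull by 2.06 ± 1.099 (adjusted p = 0.178) with H15 and by -0.97 ± 0.331 (adjusted p = 0.0281) without it. That library alone held 374 CPM of this gene, while the hull 1357 group had a median of 13.8 CPM.

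Kernel libraries outside the interval give values that share no library with the comparison. From 1223 to 1881, edgeR called 2852 genes higher (18.4% of 15492) and 2860 lower (18.5%). Of the genes called higher from 1357 to 1657, 1689 were tested there, 700 were higher (41.4%) and 81 lower (4.8%), with a median log2 change of 0.856. Of the genes called lower, 1445 were tested, 820 were lower (56.7%) and 150 higher (10.4%), with a median of -1.44. Over all genes tested in both, 18.8% were higher and 17.2% lower, with a median of 0.0592. The shared genes were 24.5% of the higher and 28.7% of the lower list from 1223 to 1881. As background, the 2 kernel lists made up 1689 and 1445 of all 15492 genes tested there. PvKer.01.g016140 changed by 1.78 ± 0.427, PvKer.11.g278740 by 9.15 ± 0.683 and PvKer.01.g017580 by -3.40 ± 0.424 in these libraries (SE, edgeR adjusted p = 0.00724, 2.9e-05 and 0.000206).

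**Figure D4:**
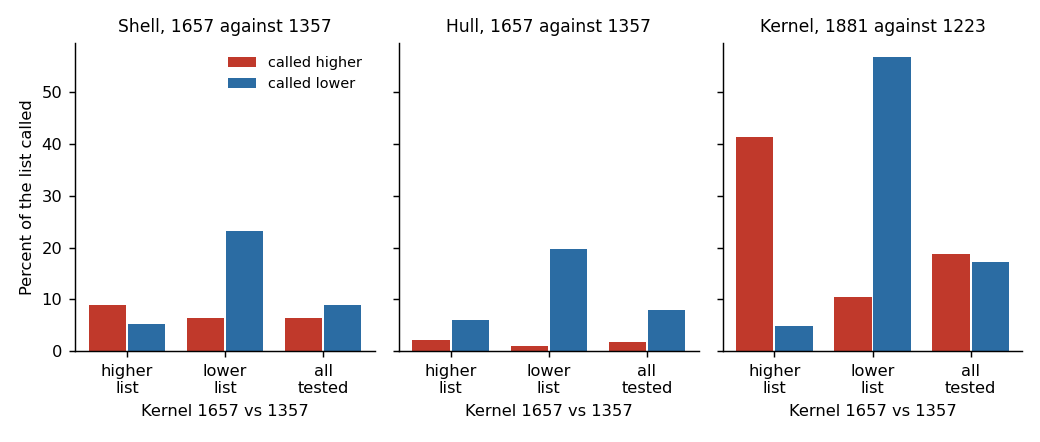
Percent of genes called higher (red) and lower (blue) in shell and hull from 1357 to 1657 and in kernel from 1223 to 1881, for the kernel higher list, the kernel lower list and all genes tested. The lower list reaches 23.2% lower in shell, 19.7% in hull and 56.7% in kernel from 1223 to 1881, and the higher list 41.4% higher in the last of these.

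Over the 12 kernel ages the 2 lists ran different courses. On the log2(CPM + 0.5) scale, the median of the higher list was 3.42 at 1223, 2.27 at 1357, 3.44 at 1508 and 3.57 at 1657, and it stayed between 3.27 and 3.81 from 1759 to 2564. The low value at 1357 follows in part from how the list was chosen. The 1223 value, from libraries the choice did not use, was close to that at 1508. All tested genes, however, had a median of 4.29 at 1223 and 3.71 at 1508. The lower list had 4.37 at 1223, 4.32 at 1357, 2.73 at 1508 and 2.35 at 1657. It stayed between 2.07 and 2.70 from 1759 to 2475 and had 4.60 at 2564, the highest of its 12 values. All tested genes were also highest at 2564, with a median of 4.37.

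Peaks were counted over the 9 ages outside the interval. Of the lower list, 34.5% peaked at 1223 and 38% at 2564, against 21.3% and 22.9% of all tested genes. Of the higher list 15.1% peaked at 1223, 17% at 2007 and 18.2% at 2475, against 21.3%, 7.93% and 20.8%. The group labelled 2564 held levels near those of the youngest kernels, with PvKer.01.g017580 at 5990 to 6680 CPM there, 7300 to 7650 CPM at 1223 and 15.1 to 39.4 CPM at 2475. Values labelled 2564 are given as labelled.

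**Figure D5:**
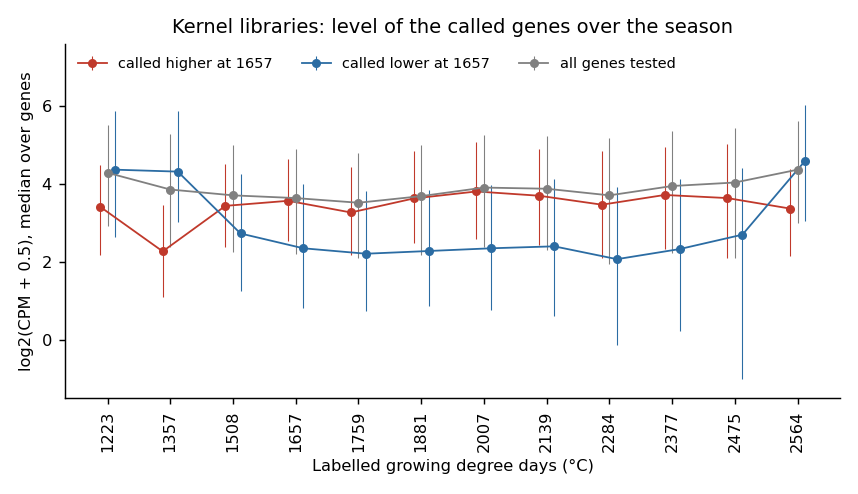
Median level of the kernel higher list (red), the kernel lower list (blue) and all tested genes (grey) in each kernel group, as log2(CPM + 0.5), by labelled degree days. Points are medians over genes of group medians over libraries, and bars span the middle quartiles over genes; the lower list drops from 4.32 at 1357 to 2.35 at 1657 and the higher list goes from 2.27 to 3.57.

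Called genes were spread over the chromosomes as numbered in the identifiers. The share called higher ran from 9.71% on chromosome 13 to 13.8% on chromosome 15, and the share called lower from 9.11% on chromosome 3 to 12.4% on chromosome 8. Of genes called higher, 275 (16.1%) had a direct neighbour by identifier called the same way, beside 12.8% of all tested genes with such a neighbour. For genes called lower it was 244 (15.6%) beside 12.9%. The longest run was 4 genes in each direction.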

How the data were processed

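Per the labels, RNA from hull, shell and kernel was made into TruSeq libraries and sequenced as 150-base paired reads. Per the submitters' processing notes, Trimmomatic 0.39 and Bowtie2 2.3.4.1 were used; the read counter, genome build, annotation and strand setting were not stated in these sources. Reads of near-identical genes may therefore be split between them. The authors deposited 1 table of whole-number counts per gene for 121 libraries, and 0 columns were left unmapped. Not analysed here are gene names and sequences, since the box held no matching annotation.

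Rows not starting with PvKer were left out. Genes were tested with edgeR 4.0.16 (R 4.3.3): filterByExpr, TMM scaling, glmQLFit and glmQLFTest, with Benjamini-Hochberg adjustment over all genes tested. Calls needed an adjusted p below 0.05 and a 2-fold change. The kernel fit held the libraries at 1357, 1508 and 1657 with 1 mean per group. A second fit held the 3 tissues at these ages, and another only kernel 1223 and 1881. Standard errors were taken from the log2 change and its F value. CPM used PvKer totals. Common dispersion gave a biological coefficient of variation of 0.217. Scripts were tested on simulated counts.

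The named genes were called genes with no overlap between libraries: in each direction the largest CPM difference, and the largest fold change with at least 10 CPM in the higher group and at least 1 count in each library of the lower group. Alternatives used RLE size factors, library totals, no filter, DESeq2 1.42.0, limma-voom (limma 3.58.1), other sets of libraries and left-out libraries. The members and lists were chosen with earlier results of these data known. The midpoint test, the neighbour counts and the fit without K10 and K17 were added after seeing the data. Replicate pairs differed by more than sampling noise, and none was counted as 1 sample.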

Additional observations from a re-analysis of the deposited data

Results flagged for a closer look

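Several results stood out between tissues. The change of PvKer.11.g278740 from 1357 to 1657 was larger in kernel than in shell by 5.53 and than in hull by 6.07 on the log2 scale, by a direct test of the difference. That of PvKer.06.g151370 was lower in kernel, by a difference of -5.33 against shell and -5.26 against hull. Both genes were chosen for their change in the same kernel libraries, which favours such differences. Over all genes, the change differed between kernel and shell in 3982 genes and between kernel and hull in 3563. The contig-named rows, which were left out of the comparisons except as an alternative, took a mean of 7.56% of counts at 1657 and 11.3% at 1357, with 26.7% in K10 and 16% in K17 (two-sided exact permutation p = 0.7 over 3 against 3 libraries).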

How the results depend on the processing

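No gene called for 1657 against 1357 was called in the opposite direction under its alternatives; reversals of single genes were not counted for the other comparisons. For 1657 against 1357, library totals alone gave 1078 higher and 2448 lower calls, all kernel libraries in the fit 791 and 775, and no minimum fold change 2715 and 2770; leaving out single libraries gave 1508 to 1823 and 1354 to 1651. Of the genes called higher, 62.9% were kept with totals alone and 44.7% with all kernel libraries; of those called lower, all and 46.9%. For 1508 against 1357, all kernel libraries gave 644 and 589, and no minimum fold change 2327 and 2295. For 1657 against 1508, the higher and lower calls were 89 and 133 without the filter, 48 and 57 with DESeq2, 4 and 5 with only the 2 groups, and 0 and 0 in edgeR with all kernel libraries (412 genes at an unadjusted p below 0.05) or without K10 and K17; limma-voom gave 19 higher, totals alone 27 lower, and left-out libraries 1 to 107 and 5 to 119. For the midpoint test, all kernel libraries gave 33 above and 26 below, the set without K10 and K17 gave 378 and 352, no filter gave 895 below, and left-out libraries 477 to 681 and 426 to 591. Leaving out 1 replicate number in every group gave 727 to 1693 lower calls in shell, 226 to 599 higher and 498 to 1372 lower in hull, 815 to 1745 and 1401 to 2227 for kernel minus shell, and 908 to 1705 and 1152 to 1732 for kernel minus hull; hull without H15 had 633 higher. The rise in the share of the 10 most abundant genes was 1.43 percentage points for 1 gene and 11.8 with contig-named rows. The shell list changed by -0.00633 percentage points at 8-fold and -0.000401 at 50 CPM, and the hull list by 0.018 at 8-fold. The cause was not tested. No paired analysis was possible because the replicate numbers follow accession order and pair no samples. At the depth of K10, genes below 0.914 CPM could not be told from 0.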
